A study of Mus musculus with 4 samples.

Results

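Myostatin (Mstn) and Gdf11 are 2 closely related secreted ligands of the TGF-beta superfamily, and they were followed here together with their antagonist Fst and with the receptors Acvr2a, Acvr2b, Acvr1b and Tgfbr1. The 7 genes were picked by name from a table of 24062 genes, and all 7 passed the filter that left 15762 genes for testing. They were picked with the fall of Mstn between these same genotypes already known, so their differences are given as a description, without a test. The data are RNA-seq counts of mouse retinas at embryonic day E13.5 of a mixed C57BL/6 and 129 strain, from 2 libraries labelled wild type and 2 labelled Nrf1-CKO. The latter are retinas of Nrf1 f/f;Six3-Cre embryos, in which the Six3-Cre transgene deletes a floxed exon of Nrf1, a transcription factor of mitochondrial and cell cycle genes, in retinal progenitor cells, with an activity that begins in the central retina. Which alleles of Nrf1 and Six3-Cre the wildtype embryos carried is not given in the sources used here. Each library was a pool of retinas from several embryos, so the spread between libraries is one between pools.

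In muscle, myostatin restrains growth, and its loss gives enlarged muscles. In the embryonic retina, Gdf11 limits the time during which progenitors produce retinal ganglion cells. Both ligands are made as precursors that proteases cut, both are bound and blocked by follistatin, the product of Fst, and both signal through a type II receptor (Acvr2a or Acvr2b) that activates a type I receptor (Acvr1b or Tgfbr1), which phosphorylates Smad2 and Smad3. Such signalling can feed back on itself, since its targets include its own inhibitors and, in neural epithelia, Gdf11 acts back on the progenitors whose daughters produce it.

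Depth was between 74577660 and 85933945 reads counted on genes per library, and levels are given as CPM, counts scaled to library size with TMM factors. The counts per gene do not show the deletion: Nrf1 had 9052 and 7789 wildtype reads against 8594 and 8284 mutant reads. Counts over the whole gene include the exons that the deletion leaves in place, so they are no check of the genotype. Retinal progenitor markers were abundant in all 4 libraries and lower in sum in the mutants. The 10 genes, among them Ccnd1, Sfrp2, Rax and Lhx2, summed to 7450 and 7990 wildtype CPM against 5660 and 6220 mutant CPM. Markers of other eye tissues were also present and higher in the mutants, with 10 lens genes summing to 118 and 313 CPM in the wildtype against 6470 and 2680 CPM in the mutant libraries. A gene was called when it differed at least 1.4-fold with an adjusted p of at most 0.2 in edgeR's quasi-likelihood test. Of all 15762 genes, 8.04% were called lower and 12.8% were called higher in the mutants, and genotypes did not overlap for 31.6% (mutants lower) and 30.9% (mutants higher).

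Of the 7 genes, Mstn alone differed by 1.4-fold or more. The 2 mutant libraries lay below both wildtype libraries for 4 genes (Mstn, Gdf11, Acvr2a and Acvr1b) and above them for 1 (Fst), and the genotypes overlapped for Acvr2b and Tgfbr1.

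Because Nrf1 is a DNA-binding factor, the promoters of the members were read from RefSeq (GRCm38.p6), which had windows for 6 of the 7 genes and none for Fst. The windows run from 250 bases before to 50 bases after a start site. In them 3 motifs were searched on both strands: the NRF1 motif GCGCANGCGC, the TATA box TATAAA and the E-box CANNTG. The NRF1 motif was present in 4.6% of all 32851 windows, and among the members it was found in Acvr1b, at -124 from the start. TATAAA was present in 13.6% of all windows and was found in Mstn at -29 and in Gdf11 at -185. E-boxes were present in 72.3% of all windows and were found in 4 members, with 4 of them in the window of Mstn, at -229, -174, -52 and -19. The 250 bases before the start are shown for the 2 ligand genes, which share a pair of short blocks, and for Acvr1b, which holds the NRF1 motif. Capitals mark TATAAA, the NRF1 motif and the shared blocks, and all are written 5′ to 3′ along the gene's strand. The Mstn stretch lies at chr1:53061390-53061639 (plus strand), that of Gdf11 at chr10:128891719-128891968 (minus strand) and that of Acvr1b at chr15:101173822-101174071 (plus strand).
Mstn: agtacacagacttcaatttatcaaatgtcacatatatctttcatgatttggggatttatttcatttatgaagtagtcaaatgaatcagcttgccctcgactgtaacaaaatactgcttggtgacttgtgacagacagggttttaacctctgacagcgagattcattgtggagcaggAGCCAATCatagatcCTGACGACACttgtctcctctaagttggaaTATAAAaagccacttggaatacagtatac
Gdf11: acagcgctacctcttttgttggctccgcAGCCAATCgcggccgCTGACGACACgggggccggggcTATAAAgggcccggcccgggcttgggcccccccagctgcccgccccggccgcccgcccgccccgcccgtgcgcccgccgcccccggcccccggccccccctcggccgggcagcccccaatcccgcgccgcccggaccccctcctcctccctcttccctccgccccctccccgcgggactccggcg
Acvr1b: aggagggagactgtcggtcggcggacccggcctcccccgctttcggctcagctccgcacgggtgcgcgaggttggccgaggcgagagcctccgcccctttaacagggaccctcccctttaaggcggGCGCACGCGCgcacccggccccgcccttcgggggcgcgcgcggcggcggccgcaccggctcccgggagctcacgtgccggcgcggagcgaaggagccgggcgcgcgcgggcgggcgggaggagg

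The 2 ligand promoters share the block AGCCAATC, which contains the letters of a CCAAT box, and the block CTGACGACAC, with 7 bases between them in both genes. These are the stretches of at least 8 bases that both promoters hold in the same orientation. The pair begins at -74 in Mstn and at -222 in Gdf11, and TATAAA follows after 20 bases in Mstn and after 12 bases in Gdf11. Alone, the first block was present in 3.84% and the second in 0.0426% of all windows, on either strand. Both blocks at this spacing were found in 2 of the 32851 windows, those of Mstn and Gdf11. The pair was looked for after the sequences were seen, and its presence says nothing of what binds there. In base composition the 2 promoters differ. The window of Mstn was 41.3% GC, that of Gdf11 80.7% and that of Acvr1b 79.7%, against a median of 52.7% over all windows. Of 49 further pathway genes with a window, 2 (Smad5 and Smurf2) held the NRF1 motif. A match is a match of letters and not a measured binding site.

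Mstn lies at chr1:53061640-53068079 of GRCm38 on the plus strand, and its annotated exons span 2705 bases. It had 797 and 822 wildtype reads against 140 and 70 mutant reads. These are 9.10 and 11.1 CPM against 1.69 and 0.846 CPM. Both mutant pools were thus far below both wildtype pools, and by fold the 2 mutant pools also differed from each other more than the 2 wildtype pools did. The mean went from 10.1 ± 1.4 to 1.27 ± 0.593 CPM (SD, n = 2), which leaves 12.5% of the wildtype level. The log2 ratio of mutant to wildtype, from the fit over all genes, was -2.99 (standard error, SE, 0.30), and in order of decrease Mstn was at place 23 of the 15762 genes. Its size depended on the mutant pool, at -3.57 without the first mutant library and -2.58 without the second. On the normalized values that the authors deposited, a log2 scale on which a count of 0 has a fixed positive value, the difference was -1.39.

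Gdf11, the sister ligand, is at chr10:128882295-128891718 on the minus strand. It had 4739 and 3893 wildtype reads against 4086 and 4231 mutant reads, or 54.1 and 52.5 CPM against 49.2 and 51.1 CPM. Both mutant values were below both wildtype values, by little: the mutant mean was 94.1% of the wildtype mean and the log2 ratio was -0.09 (SE 0.08). The transcripts of the 7 genes shared no stretch of 30 bases, so the counts of the ligands are not mixed by identical sequence of that length.

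Per length of exon (RPKM, the CPM per kilobase of exon), Gdf11 was the more abundant ligand transcript in every library. Mstn had 3.36 and 4.10 RPKM in wildtype pools against 0.623 and 0.313 RPKM in mutant pools, whereas Gdf11 had 13.3, 12.9, 12.1 and 12.6 in the same order. The share of Mstn in the sum of both ligands was 20.2% and 24.1% in wildtype pools against 4.89% and 2.42% in mutant pools. The excess of Gdf11 over Mstn therefore went from 3.96-fold and 3.15-fold to 19.4-fold and 40.3-fold.

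**Figure D1:**
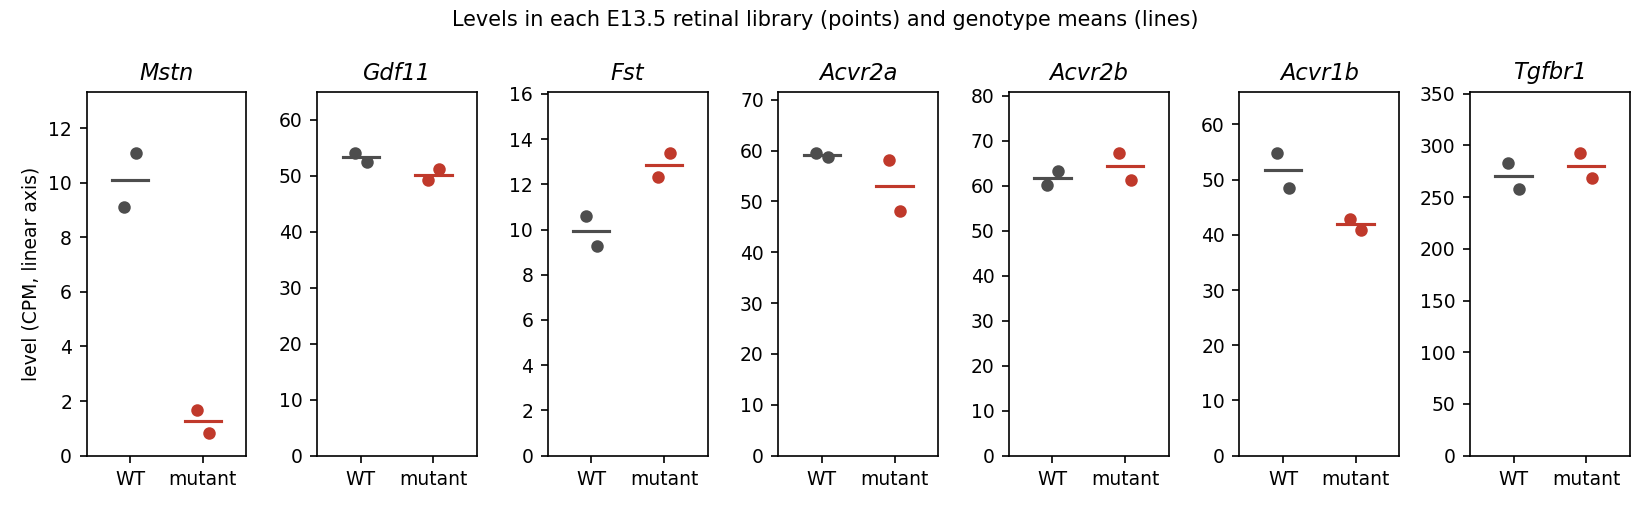
Level of each gene in CPM (linear axes from 0, a scale for each gene) in the 2 wildtype (grey) and 2 Nrf1 f/f;Six3-Cre (red) libraries, with points for libraries and lines for genotype means. Mstn drops from a mean of 10.1 to 1.27 CPM, Fst lies higher and Acvr1b lower in both mutant libraries, and the values of Acvr2b and Tgfbr1 overlap.

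Fst, which encodes follistatin, is at chr13:114452290-114458951 on the minus strand. It had 924 and 688 wildtype reads against 1018 and 1105 mutant reads, or 10.6 and 9.28 CPM against 12.3 and 13.4 CPM. Both mutant values were above both wildtype values, and the mean went from 9.91 ± 0.901 to 12.8 ± 0.779 CPM (SD, n = 2). The fold was 1.29 (log2 ratio 0.37, SE 0.13), which is under the limit of 1.4. Per length of exon, the sum of both ligands was 7.26 and 8.42 times the level of Fst in the wildtype libraries and 4.77 and 4.43 times in the mutant libraries. The antagonist was thus higher, and the ligands lower, relative to each other in both mutant pools. An exon of Fst overlaps the annotated antisense gene Gm47040, and the strand setting of the counting is not given in the sources used here, so reads from the 2 genes cannot be told apart where they overlap.

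The type II receptors, which bind the ligands first, differed little between genotypes. Acvr2a (chr2:48814109-48903269, plus strand) had 59.6 and 58.8 wildtype CPM against 58.1 and 48.1 mutant CPM. The first mutant pool was next to the wildtype pools and only the second was clearly lower, and the log2 ratio of -0.16 (SE 0.10) became -0.03 without the second mutant library and -0.30 without the first. The end of Acvr2a overlaps exon sequence of Orc4 on the opposite strand, a gene that was itself counted, and how reads in the overlap were assigned is not given in the sources used here. Acvr2b (chr9:119402118-119434995, plus strand) had 60.3 and 63.4 wildtype CPM against 67.4 and 61.3 mutant CPM. Its genotypes overlapped, with a log2 ratio of 0.06 (SE 0.08).

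Of the type I receptors, Acvr1b was lower in both mutant pools and Tgfbr1 was not. Acvr1b, also known as ALK4 (chr15:101174067-101213684, plus strand), had 4804 and 3599 wildtype reads against 3564 and 3384 mutant reads, or 54.9 and 48.5 CPM against 42.9 and 40.9 CPM. The mean went from 51.7 ± 4.48 to 41.9 ± 1.41 CPM (SD, n = 2), a log2 ratio of -0.30 (SE 0.09) that is within the 1.4-fold limit. Tgfbr1, also known as ALK5 (chr4:47353222-47414931, plus strand), had 283 and 258 wildtype CPM against 293 and 268 mutant CPM. Its genotypes overlapped, with a log2 ratio of 0.05 (SE 0.09). The ratio of Tgfbr1 to Acvr1b per length was 3.49 and 3.6 in wildtype pools against 4.62 and 4.43 in mutant pools, so the balance of the 2 type I receptor transcripts was further toward Tgfbr1 in both mutant pools. The ratio of Acvr2b to Acvr2a was 1.46 and 1.56 in the wildtype against 1.68 and 1.85 in the mutant libraries.

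In the order of levels per length, Tgfbr1 stood first in both genotypes, at 41.4 ± 2.70 RPKM in the wildtype and 42.9 ± 2.71 in the mutants (SD, n = 2). Acvr2b followed with 15.7 ± 0.558 and 16.4 ± 1.10. Gdf11, Acvr1b and Acvr2a came next in the wildtype with 13.1 ± 0.283, 11.7 ± 1.01 and 10.4 ± 0.0991, and all libraries of Gdf11 were above those of Acvr1b, whose libraries were above those of Acvr2a. In the mutants Gdf11 stayed next with 12.3 ± 0.340, and Acvr1b (9.48 ± 0.320) and Acvr2a (9.34 ± 1.25) could not be ordered, since their libraries overlapped. The last 2 places changed over: Mstn was above Fst in the wildtype, 3.73 ± 0.518 against 2.16 ± 0.196, and below it in the mutants, 0.468 ± 0.219 against 2.79 ± 0.170.

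**Figure D2:**
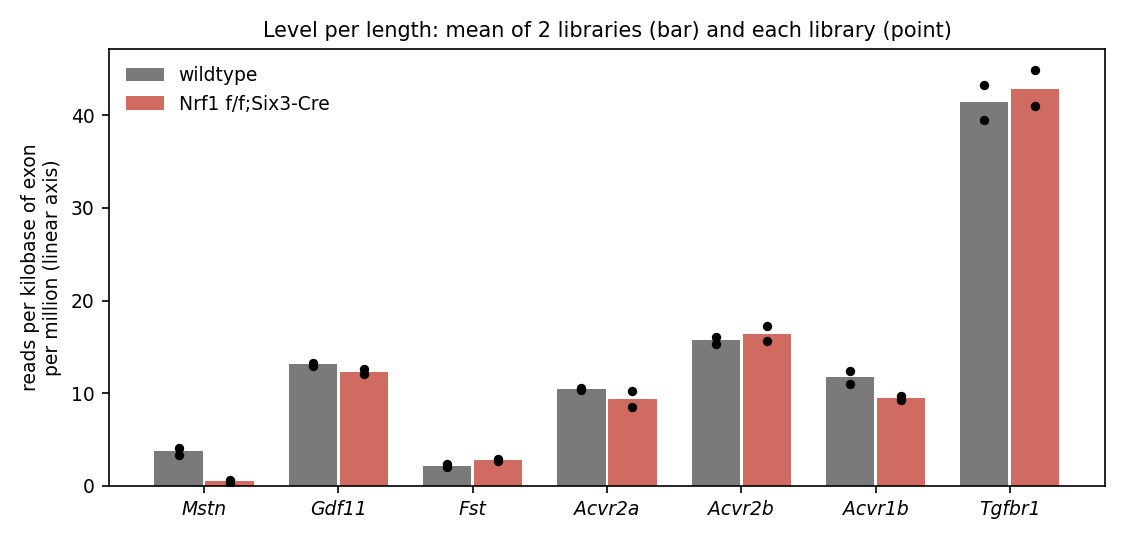
RPKM (CPM per kilobase of exon, linear axis) of the 7 genes, with bars for the mean of 2 libraries, points for each library, grey for wildtype and red for Nrf1 f/f;Six3-Cre. Tgfbr1 is the most abundant of the 7 transcripts in both genotypes, and Mstn is above Fst in wildtype and below it in the mutants.

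Retinal ganglion cell markers fell together with Mstn, and skeletal muscle markers did not. All 10 ganglion cell genes tested, among them Pou4f1, Isl1 and Sncg, were called lower, with a median ratio on the log2 scale of -1.70. Their summed level was 1900 and 2150 wildtype CPM against 740 and 560 mutant CPM, the same order of the 4 libraries as for Mstn. Fewer ganglion cells and less RNA per cell cannot be told apart in these bulk samples, and the part of these cells in the fall of Mstn was not tested. Of 18 skeletal muscle genes, 14 were tested and 13 of these were called higher, with a median ratio on the log2 scale of 2.27. Their summed level was 47.1 and 35.8 wildtype CPM against 344 and 63.4 mutant CPM. Myod1, which defines muscle precursors, had 25, 10, 199 and 38 reads in the same order. The second mutant library held 70 Mstn reads and less muscle transcript than the first, and the part of muscle in the Mstn values was not tested. The first mutant library, with the most muscle transcript, held 140 Mstn reads, more than the second and less than either wildtype library. The number of muscle genes called higher depended on it, at 4 without the first mutant library, 9 without either wildtype library and 16, including genes that the filter otherwise removed, without the second mutant library.

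Markers of progenitors, ciliary margin and pigment epithelium were also read beside Mstn. Of 10 progenitor genes, 2 were called lower (Fgf15 and Ccnd1), and the other 8 were not called. All 6 ciliary margin genes, among them Otx1, Msx1 and Bmp4, were called higher, with sums of 263 and 244 CPM in the wildtype against 496 and 529 CPM in the mutant libraries. Of 6 pigment epithelium genes 5 were tested and 4 of these were called higher, with sums of 203 and 145 wildtype CPM against 371 and 394 mutant CPM. Mstn thus fell while the margin genes and most pigment epithelium genes tested rose, and the 10 ganglion cell and 6 margin genes were called in the same number when any 1 library was left out.

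**Figure D3:**
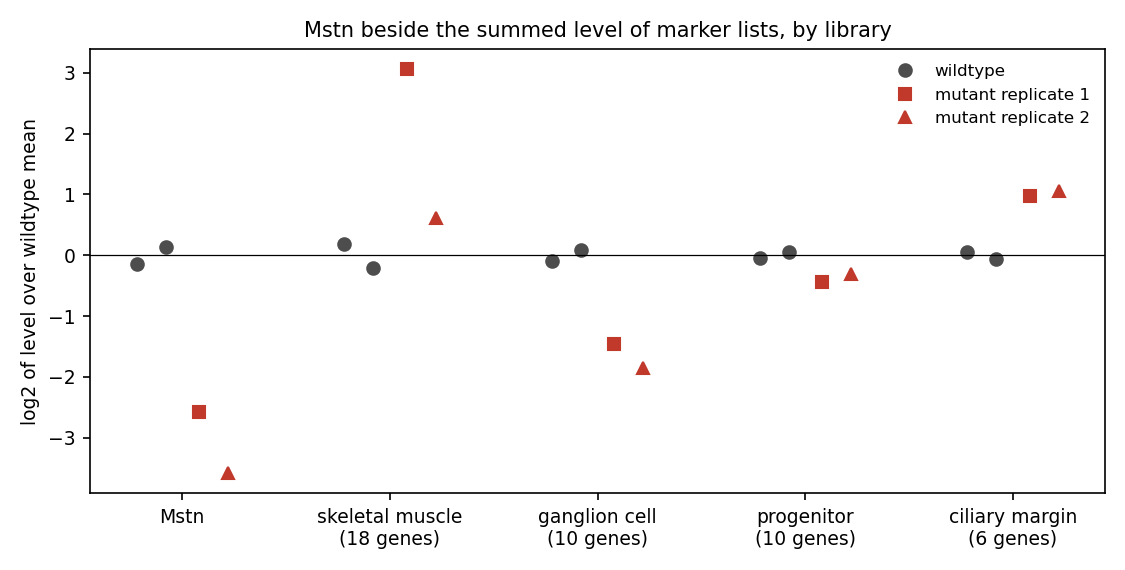
Log2 of the level over the wildtype mean for Mstn and for the summed CPM of 4 marker lists, with grey points for the 2 wildtype libraries, a red square for the first and a red triangle for the second mutant library. Mstn, ganglion cell markers and, by less, progenitor markers are below 0 in both mutant libraries. Muscle and ciliary margin markers are above 0, muscle most of all in the first.

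The genes with the profile most like that of Mstn were sought among 13430 genes with a mean of at least 1 CPM, by the Euclidean distance of log2 CPM centred on each gene's own mean over the 4 libraries. The 6 nearest were Nrn1, Eomes, Resp18, Vstm2l, Gli1 and Plekhd1, at distances between 0.152 and 0.352. Nrn1, which encodes neuritin, a membrane-anchored protein that promotes neurite growth, had 1183 and 1180 wildtype reads against 227 and 113 mutant reads. Eomes, a T-box factor expressed in a subset of ganglion cells, had 2.32 and 3.10 CPM against 0.506 and 0.278 CPM. Gli1, a transcriptional effector of hedgehog signalling, had 52.4 and 67.7 CPM against 9.21 and 3.75 CPM. All 3 shared with Mstn the lower value in the second mutant library, a likeness that the choice by distance brings with it. The 4 genes nearest to Fst were Pacsin3, Galnt4, Sft2d2 and Bak1, at distances between 0.0356 and 0.0475. With 4 libraries such likeness rests on few points and on values that chose Mstn.

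On chromosome 1, the protein-coding gene next to Mstn was also lower. 1700019D03Rik ends 41461 bases before Mstn and had 145 and 104 wildtype reads against 40 and 30 mutant reads, a log2 ratio of -1.85 (SE 0.42, adjusted p = 0.0129). Its call was lost in 1 alternative, on the deposited normalized values, where the difference was -0.44. The genes further out were not called: Hibch had 14.0 and 16.3 wildtype CPM against 15.3 and 14.0 mutant CPM, and Pms1 had 39.0 and 38.2 CPM against 36.7 and 33.0 CPM. The remaining neighbour, 1700019A02Rik, had at most 4 reads in any library and was not tested. Beside Gdf11 on chromosome 10, Sarnp and Ormdl2 on one side were not called, with log2 ratios of -0.04 and -0.05. On the other side Cd63, which encodes a tetraspanin of endosomes, was called higher, with 435 and 340 reads in the wildtype against 648 and 571 in the mutant libraries (log2 ratio 0.62, SE 0.16, adjusted p = 0.0263). Its call was lost in 1 alternative, on the deposited normalized values, where the difference was 0.34. Rdh5 was not called, with a log2 ratio of 0.62 (SE 0.31, adjusted p = 0.201), but was called in 6 of 13 alternatives, among them without the first wildtype library (0.86) and without the first mutant library (0.85).

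The wider pathway was read from 7 lists that hold 71 further genes, of which 64 were tested. Of these, 27 were called higher, 3 were called lower, among them Smad2 and Pmepa1, and 34 were not called. The median log2 ratio was 0.43, against 0.000728 over all genes tested. Over all genes the shares were 12.8% called higher and 8.04% called lower, and since the lists were chosen with these data known, the counts are a description of the listed genes. The mutants also held more transcript of macrophages (7 genes summing to 68.8 and 63.3 CPM in the wildtype against 202 and 241 CPM), of periocular mesenchyme (8 genes, 238 and 173 against 383 and 329 CPM) of pigment epithelium and of lens, and 3 of 5 endothelial genes were called higher, with a list median of 1.13 on the log2 scale. The endothelial genes called higher were Pecam1 (1.13), Cdh5 (1.21) and Tek (1.96), while Kdr, the most abundant of the 5, was called lower (-0.55) and the sum of the 5 was 248 and 255 against 247 and 236 CPM. The part of these cells in the pathway values was not tested. Without the second mutant library 21 pathway genes were called higher, and without the first 24. On the deposited normalized values 16 were called higher, and differences there were smaller for genes with few reads, such as 0.53 for Cdkn2b and 0.66 for Tgfb1.

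Other ligands of the activin type rose or were not called. Of 11 genes listed, 8 were tested, 3 were called higher and none was called lower, with a median ratio on the log2 scale of 0.56. Tgfb1, a ligand that signals through Tgfbr1 and Tgfbr2, had 202 and 147 wildtype reads against 496 and 469 mutant reads (log2 ratio 1.44, SE 0.20, adjusted p = 0.0013). Gdf3, named here after its values were seen, had no reads in the wildtype and 28 and 36 reads in the mutant libraries, at least 10.3-fold higher when the wildtype is set to 3 counts per library. The list's median was also 0.56 with Gdf3 at this bound. Inhbb, the beta B subunit of activin and inhibin, had 74 and 74 reads against 114 and 144 (log2 ratio 0.76, SE 0.36, adjusted p = 0.176). Its call was lost in 7 of 13 alternatives, among them leaving out any 1 library, with values from 0.57 without the second mutant library to 0.92 without the first, and 0.64 and 0.88 without the first and the second wildtype library. Inhba, the beta A subunit, was scarce, with 8 and 14 wildtype against 31 and 20 mutant reads, and was not called. Tgfb2 went from 116 ± 2.04 to 149 ± 5.29 CPM (SD, n = 2), which is under 1.4-fold.

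Genes of ligand maturation rose in 4 of 6 cases and fell in none, with a median ratio on the log2 scale of 0.50. Pcsk6, a furin-like convertase, went from 4.76 ± 0.252 to 8.69 ± 0.102 CPM (SD, n = 2), a log2 ratio of 0.87 (SE 0.15, adjusted p = 0.00378). Furin, which cuts the precursors of both ligands, went from 57.3 ± 6.04 to 81.2 ± 8.53 CPM, and Bmp1, a tolloid-type protease that frees the mature ligand from its propeptide, from 58.7 ± 1.92 to 83.1 ± 4.74 CPM. Both had log2 ratios of 0.50, just past the limit of 1.4-fold. Furin lost its call without the first wildtype library (0.40) and without the second mutant library (0.39), and Bmp1 without the second wildtype library (0.47) and without the second mutant library (0.44). Tll2, named after its values were seen, had 9 and 14 reads against 48 and 21, and its call was lost when any 1 library was left out, with values of 1.13, 2.0, 0.80 and 1.98 without the first and second wildtype and the first and second mutant library. Pcsk5, a convertase with a log2 ratio of 0.47, was not called, but was called without the second wildtype library (0.65) and without the first mutant library (0.53).

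Of 15 extracellular binding proteins and antagonists, 12 were tested, 6 were called higher and none lower, with a median ratio on the log2 scale of 0.62. The latent TGF-beta binding proteins, which hold ligand precursors in the matrix, made up 3 of the 6. Ltbp1 went from 135 ± 12.1 to 296 ± 31.8 CPM (SD, n = 2), a log2 ratio of 1.13 (SE 0.10, adjusted p = 0.000188). Ltbp3 and Ltbp4 had log2 ratios of 0.90 (SE 0.09) and 0.66 (SE 0.09). Wfikkn2, a secreted protein that binds both myostatin and Gdf11, had 167 and 120 wildtype reads against 218 and 243 mutant reads, a log2 ratio of 0.66 (SE 0.27, adjusted p = 0.117). Its call was lost without the second wildtype library (0.55) and without the second mutant library (0.57). The BMP antagonist Grem1 had a log2 ratio of 0.74 (SE 0.32, adjusted p = 0.142), and its call was lost without the first wildtype library (0.49), the first mutant library (0.69) and the second mutant library (0.78). Nog, a further BMP antagonist named after its values were seen, had 19 and 32 reads against 82 and 53, and its call was lost without the first wildtype library (0.92) and without the first mutant library (0.99). Fstl3, the follistatin-like protein nearest in function to Fst, had 48 and 44 wildtype reads against 46 and 71 mutant reads and was not called.

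Among 9 other receptors of the family, 4 were called higher and none lower. These were Acvrl1 (log2 ratio 1.36, SE 0.20, adjusted p = 0.00143) and Eng (1.14, SE 0.13), both known from endothelium, and Tgfbr2 (1.13, SE 0.11) and Tgfbr3 (0.80, SE 0.12), a type II receptor and a co-receptor for TGF-beta. Tgfbr2 had 887 and 780 wildtype reads against 1788 and 1968 mutant reads, so it differed while Acvr2a and Acvr2b, the type II receptors that bind myostatin and Gdf11, did not reach 1.4-fold. Acvr1c, a further type I receptor that can act for activin-type ligands, had 260 and 299 reads against 271 and 254 and was not called.

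Inside the cell, Smad2 was lower and its partners were not called. Smad2 had 24039 and 21173 wildtype reads against 15981 and 14335 mutant reads, a log2 ratio of -0.61 (SE 0.08, adjusted p = 0.00107). Smad3, which the same type I receptors phosphorylate, was at 162 ± 7.93 and 158 ± 4.80 CPM, and Smad4, the common partner, at 187 ± 3.89 and 167 ± 13.0 CPM. The inhibitory Smads rose: Smad7 had a log2 ratio of 0.56 (SE 0.10, adjusted p = 0.00421) and Smad6 of 0.55 (SE 0.16, adjusted p = 0.0407). Both calls rest on values near the limit of 1.4-fold, since Smad7 was at 0.47 without the second mutant library, and Smad6 at 0.37 without that library and at 0.34 without the first wildtype library, all no longer called. Of the 16 transducers tested, 13 were not called, and the median of the list was -0.03.

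Of 11 genes known to respond to Smad2 and Smad3, 8 were called higher, 1 was called lower and 2 were not called, with a median ratio on the log2 scale of 1.4. Cdkn1a, an inhibitor of the cell cycle that p53 also induces, had 247 and 109 wildtype reads against 1311 and 1572 mutant reads (log2 ratio 3.01, SE 0.27, adjusted p = 0.000178). Tgfbi, a matrix protein named for its induction by TGF-beta, had 284 and 247 reads against 1643 and 2128 (2.79, SE 0.16). Cdkn2b (1.82), Junb (1.54) and Ctgf (1.4) were also called higher, as was Ldlrad4 (1.27), which was named after its values were seen. Pmepa1, the other feedback inhibitor of the family of Ldlrad4 and likewise named afterwards, went the opposite way, with 7703 and 7247 wildtype reads against 4067 and 3981 mutant reads (log2 ratio -0.94, SE 0.08, adjusted p = 0.00017). The co-repressor gene Skil, induced by the same Smads, was lower in both mutant pools at 301 ± 7.03 against 259 ± 14.1 CPM and was not called.

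**Figure D4:**
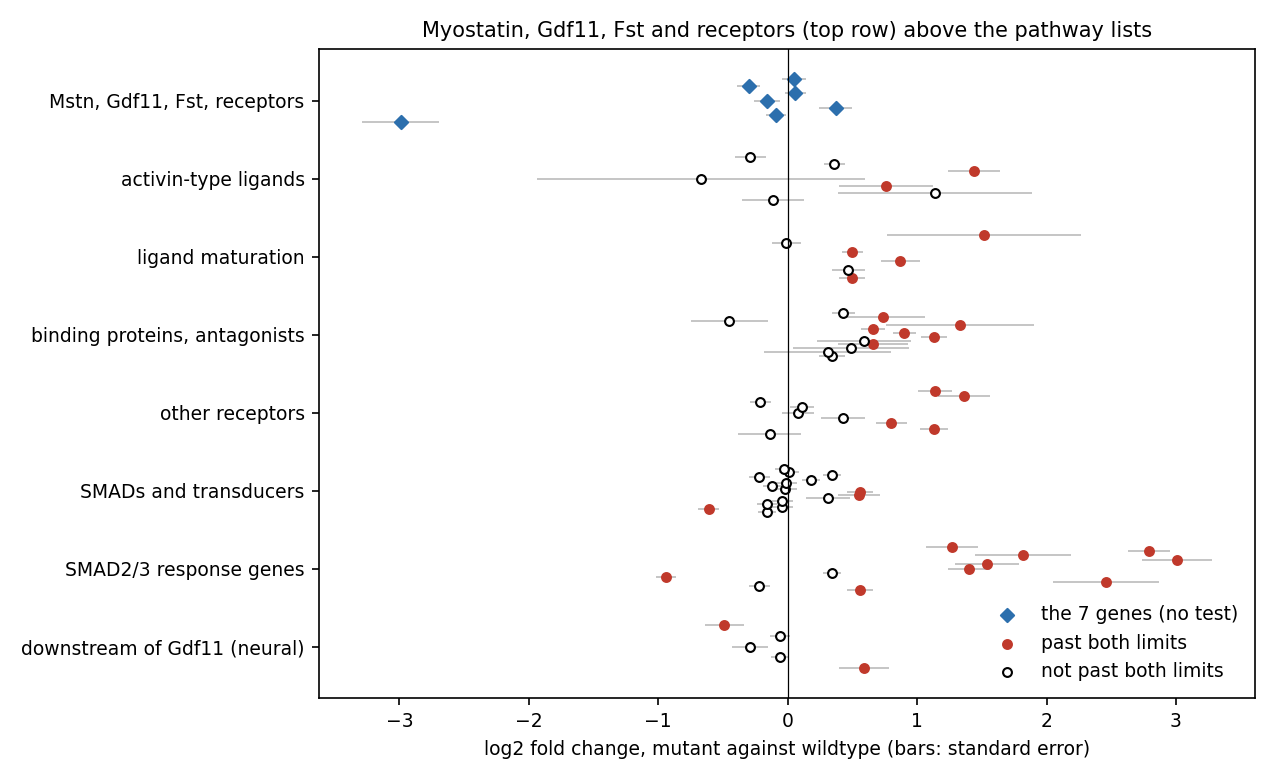
Log2 ratio of mutant against wildtype libraries (points, with bars for the standard error (SE)) for the 7 genes in the top row (blue diamonds, no test) and for the tested genes of the 7 pathway lists (circles, red where both limits were passed), without Gdf3, which had no wildtype reads. Mstn, at -2.99, is the lowest value shown, and the other 6 genes of its row are between -0.30 and 0.37.

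In neural epithelia Gdf11 is known to act on genes of neurogenesis and of cell cycle exit, and 3 such genes were not called. Atoh7, the factor needed for ganglion cells to form, had 8203 and 9668 wildtype reads against 7183 and 7953 mutant reads, and its genotypes overlapped. Cdkn1b, a cell cycle inhibitor that Gdf11 induces, was at 91.8 ± 0.688 and 88.2 ± 1.14 CPM (SD, n = 2), and Neurod1 at 86.4 ± 2.97 and 82.8 ± 2.74 CPM.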

How the data were processed

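RNA of pooled E13.5 retinas was sequenced in paired 100-base reads (4 libraries, 2 of each genotype). The authors aligned reads to mm10 with TopHat2 (2.7.2 in the submitters' processing notes), counted them per gene with HTSeq and deposited whole-number counts. They also deposited log2 normalized values, and the submitters' processing notes name DESeq and limma without saying for which step. The annotation release is not given in the sources used here. Genes with low counts were removed with filterByExpr (minimum count 10), and genotypes were compared with the quasi-likelihood test of edgeR 4.0.16 (TMM, Benjamini-Hochberg over 15762 genes, R 4.3.3), which was tested on simulated data. Summary rows of the counting, 74.0% to 75.0% of all entries, stayed out. Standard errors and p-values rest on 2 pools per genotype and on a spread that the fit draws partly from all genes. They are thus not the spread between a gene's own pools alone. For Mstn the SE was 0.30, while the SD of its log2 levels within genotypes was 0.52. Counting error does not cover PCR copies. Positions and exon lengths come from GENCODE on GRCm38. The members and gene lists were chosen with earlier results of these data known. From each list, called genes were named by size of change, at most 6 and averaging at least 1 CPM, besides fixed genes, the 2 nearest coding genes on each side of Mstn and Gdf11, and the genes nearest in profile. Ccn2 is listed in the table as Ctgf. Whether libraries of the same replicate number belong together is not given in the sources used here, and the main fit did not pair them. Some further genes are not reported here. Alternatives were DESeq2 1.42.0, limma 3.58.1 on the normalized values, other scalings and filters, the replicate number as a block, and each library left out.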

Additional observations from a re-analysis of the deposited data

How the results depend on the processing

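The direction of Mstn, Gdf11, Fst, Acvr2a and Acvr1b was the same in all 13 alternatives. With 1 library left out, the lone library of its genotype was assumed to vary like the other genotype, and the log2 fold changes ranged from -3.57 to -2.58 for Mstn, from -0.12 to -0.06 for Gdf11, from 0.28 to 0.47 for Fst, from -0.30 to -0.03 for Acvr2a and from -0.39 to -0.21 for Acvr1b. Acvr2b and Tgfbr1 both ranged from -0.01 to 0.12. On the deposited normalized values Mstn was at -1.39 and Fst at 0.25, and 723 genes were called lower, 945 higher and 16 of the pathway higher, against 1268, 2024 and 27, and the cause was not tested. With upper-quartile scaling Gdf11 was at -0.05. Differences close to 0 changed sign with upper-quartile scaling for Smad3 (0.00) and Sarnp (0.00), and when 1 library was left out for Fstl3 (-0.04 to 0.59), Smad3 (-0.08 to 0.02), Acvr1c (-0.34 to 0.10), Hibch (-0.15 to 0.07), Sarnp (-0.16 to 0.10) and Ormdl2 (-0.14 to 0.02). Leaving out 1 library left from 1071 to 1402 genes called lower and from 1703 to 1856 called higher, and from 2 to 4 and from 21 to 26 of the pathway. Over all genes, samples of the same number did not deviate together (correlation -0.00473 over 15762 genes). This cannot show whether they shared litters or a preparation. With the replicate number as a block Mstn was at -3.04, with 1256 genes called lower and 1970 higher. Over the alternatives of 44 other genes, 503 values kept their direction and side of the limits, 48 lost the call, 9 gained it and 10 changed sign. With 70 to 1105 reads per library, Mstn and Fst have the lowest depth of the 7 genes.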
